A study of Homo sapiens with 5 samples.

Results

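Hepatic stellate cells store vitamin A in the healthy liver and turn into matrix-producing myofibroblasts after injury, and a small set of transcriptional regulators is known for holding them in, or returning them to, the quiescent state. The binding of the transcription factor TEAD4 was examined here at 10 such genes, PPARG, VDR, NR1H4, NR4A1, LHX2, GATA4, GATA6, TCF21, IRF1 and IRF2, out of 20007 protein-coding gene symbols of GENCODE release 44. The genes were listed by name, and a peak was given to a gene when its summit lay in the gene body or within 50 kb of any of the gene's transcription start sites (TSSs). By this rule 8 of the 10 genes had a peak, against 56.2% of all protein-coding genes, and these 8 held 22 of the 21113 peaks.

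The data came from LX-2, an established line of human hepatic stellate cells used as a model of the activated, myofibroblast-like cell. TEAD4 ChIP-seq had been performed on 3 cultures that received the solvent DMSO and no other agent, beside 2 input samples, of which one was shared by replicates 1 and 2. The authors left out replicate 2 as not concordant and made a single list of peaks from replicates 1 and 3, which all values below come from. The list has no value for a single replicate and there was no treated group, so no peak has an error between replicates, no test was run, the depth of the samples is unknown, and no comparison between conditions was made. Gene expression was not measured in these samples, and whether the 10 genes were expressed in these cultures is not known from them.

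TEAD factors are the DNA-binding partners of the Hippo pathway coactivators YAP and TAZ, which accumulate in the nucleus when stellate cells become activated. They recognise a short element that contains the letters ACATTCC, which on the opposite strand are spelled GGAATGT. They often bind enhancers together with AP-1, the FOS and JUN dimers, which recognise TGACTCA and, read from the opposite strand, TGAGTCA. The genes examined fall into nuclear receptors, developmental transcription factors and interferon regulatory factors.

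Sequences of 201 bases centred on the summit are printed here for a peak of VDR and a peak of IRF1 that carried the element of TEAD near the summit, for a peak of IRF1 with an AP-1 element beside its summit, and for the stronger peak of PPARG, which had neither. All are from the plus strand of hg38, 5′ to 3′, and capitals mark the TEAD element (ACATTCC or its reverse complement) and the AP-1 element.
VDR, chr12:47910569-47910769: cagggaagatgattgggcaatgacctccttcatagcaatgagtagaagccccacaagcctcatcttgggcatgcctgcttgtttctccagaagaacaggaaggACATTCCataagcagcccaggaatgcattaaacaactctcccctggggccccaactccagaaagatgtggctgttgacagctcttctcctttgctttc
IRF1, chr5:132496151-132496351: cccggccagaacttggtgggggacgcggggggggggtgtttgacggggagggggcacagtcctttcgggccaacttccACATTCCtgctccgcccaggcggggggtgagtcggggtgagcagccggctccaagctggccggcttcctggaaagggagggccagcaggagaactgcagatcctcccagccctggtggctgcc
IRF1, chr5:132439617-132439817: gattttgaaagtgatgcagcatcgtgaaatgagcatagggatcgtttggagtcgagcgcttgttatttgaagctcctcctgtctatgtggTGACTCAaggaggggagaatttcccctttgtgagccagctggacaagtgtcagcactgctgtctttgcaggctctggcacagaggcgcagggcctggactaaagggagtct
PPARG, chr3:12308559-12308759: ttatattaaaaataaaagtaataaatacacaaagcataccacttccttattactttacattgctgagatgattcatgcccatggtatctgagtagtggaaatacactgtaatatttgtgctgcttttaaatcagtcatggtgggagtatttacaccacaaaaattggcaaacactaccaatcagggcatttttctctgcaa

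The centre of the TEAD element lay within 20 bp of the summit in these windows of VDR and IRF1, at 6 and 19 bp, and in that of NR4A1, at 9 bp. In the peak of IRF2 it lay 78 bp away, whereas the AP-1 element lay 2 bp from the summit. The windows also differed in base composition. The windows of NR4A1 and IRF1 with a TEAD element were 72.1% and 69.7% G and C, while that of PPARG was 33.3% and that of IRF2 37.8%. The median was 50.5% over the 22 windows and 44.8% over all peaks.

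Of the 10 regulators, 8 had at least 1 peak (exact binomial 95% interval of the share, 44.4 to 97.5%, which covers counting error only), against 56.2% of all protein-coding genes. The regulators had a median of 1.5 peaks and a mean of 2.2, against 1 and 1.44 over all genes. Their searched windows were also longer, with a median of 148202 bp against 112475 bp. Per 100 kb of window, the median was 0.861 peaks for the regulators and 0.667 for all genes. VDR and IRF1 had 6 peaks each, a number reached by 4.67% of genes, GATA4 had 3, PPARG and NR4A1 had 2, and NR1H4, LHX2 and IRF2 had 1. GATA6 and TCF21 had none, as did 43.8% of all genes. VDR and IRF1 together held 12 of the 22 peaks.

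The 22 peaks were of ordinary strength for the list. Their signal values had a median of 72.3 and ran from 28.5 to 323.7, against a median of 68.1 and quartiles of 46.1 and 114 over all peaks. The signal value was read as a unitless score of peak strength, and how it was computed is not given. There were 11 peaks above the median of the list and 11 below it, and 2 of the 22, at NR4A1 and VDR, were above its 90th percentile. The highest score for repeatability between replicates (1000, from the irreproducible discovery rate, IDR) was given to 16 of the 22 peaks and to 76.1% of all peaks. The lowest score among them was 877, at NR1H4, and all 22 were at the highest −log10 q-value of the list, 4.76, as were 94.5% of all peaks.

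The rule searches whole gene bodies, which together are far longer than the sequence within 2.5 kb of the main start sites. More of the peaks lay inside the genes than at these sites. The summit was in an intron of the regulator in 17 of 22 peaks and in an exon in 1, and 4 peaks lay outside the gene body. From the TSS of the Ensembl canonical transcript, 16 peaks were more than 10 kb away, 10 of the 22 were upstream and 12 downstream. With the gene body alone, 18 of the 22 peaks were kept, while the mean over all genes went from 1.44 to 0.599. Gene length was not adjusted for, and the intron share and distances were not compared with all peaks. A summit within 2.5 kb of any annotated TSS was found at 4 of the 10 genes, PPARG, VDR, NR4A1 and IRF1, against 16.7% of all genes. At 3 of these 4 the TSS belonged to an alternative transcript, and NR4A1 was the only one of the 10 genes with a summit within 2.5 kb of its canonical TSS, against 11% of all genes. The 10 genes had between 2 and 31 annotated TSSs, with 31 at PPARG and 28 at IRF1.

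Of the nuclear receptors, all 4 had a peak, and together they held 11 of the 22. PPARG (ENSG00000132170, chr3:12287368-12434356), the receptor that drives fat storage and is lost as stellate cells activate, had 2 peaks, both within its body. The stronger, at chr3:12308555-12308755, had a signal value of 96.2, above 68.0% of the list, and its summit was in an intron 19589 bp downstream of the canonical TSS and 175 bp upstream of an alternative one. The weaker, at chr3:12405681-12406124, had a signal value of 29.7, above 6.30% of the list. Its IDR score was 896. Its summit was in an exon of a PPARG transcript 595 bp downstream of another alternative TSS and 116833 bp from the canonical one. Neither held a TEAD or AP-1 element within 100 bp of the summit, although the weaker held the shorter core GGAATG. Thus both peaks of PPARG counted as promoter peaks through alternative start sites and neither lay at the canonical promoter.

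VDR (ENSG00000111424, chr12:47841537-47943048, minus strand), the vitamin D receptor, whose ligands dampen TGF-β signalling in stellate cells, had 6 peaks, or 3.66 per 100 kb, more per length than 95.2% of genes. The strongest, at chr12:47935148-47935419, had a signal value of 230.4, above 93.3% of the list, and was in an intron 30294 bp upstream of the canonical TSS and 7760 bp downstream of an alternative one. It overlapped a weaker peak (signal value 47.2, IDR score 984), so the 6 peaks made up 5 separate regions. The peak that carried the TEAD element shown above, at chr12:47910447-47910890, had a signal value of 78.1 and was 5675 bp upstream of the canonical TSS. The peak nearest to any VDR TSS, at chr12:47881827-47881990, was 997 bp downstream of an alternative start, had a signal value of 108.8 and carried neither element. A further intronic peak with a signal value of 84.6 had an AP-1 element 58 bp from its summit. Of the 24-base words of that window 32.6% occurred more than once in hg38, the most frequent of them 1446 times. The sixth peak of VDR, with a signal value of 118.3, lay outside the gene, 20541 bp upstream of the nearest VDR TSS, and its summit was in an exon of TMEM106C, 5 bp from a TSS of that gene. Thus 5 of the 6 peaks were in introns of VDR, and the sixth was at the start of a neighbouring gene.

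NR1H4 (ENSG00000012504, chr12:100473708-100564414) encodes FXR, the bile acid receptor. It had a single peak, at chr12:100481005-100481448, in an intron 7361 bp downstream of the canonical TSS. The signal value was 47.5, above 27.0% of the list, its IDR score of 877 was the lowest of the 22, and the window held neither element nor the core GGAATG. By these values it was among the weaker peaks at the regulators.

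NR4A1 (ENSG00000123358, chr12:52022832-52059507), an orphan receptor induced as an immediate early gene and known for restraining TGF-β responses in fibroblasts, had the strongest peak of all 22. This peak, at chr12:52051083-52051404, had a signal value of 323.7, above 97.2% of the list (rank 596 of 21113), and the highest IDR score. Its summit lay 205 bp upstream of the canonical TSS, in an intron of longer NR4A1 transcripts, and the TEAD element was 9 bp from it, in GC-rich sequence without an AP-1 element. None of the other peaks at the 10 genes was stronger, and none lay within 2.5 kb of a canonical TSS. The other NR4A1 peak had a signal value of 44.5, above 22.6% of the list, and lay 31083 bp downstream of the canonical TSS in an intron of SMIM41, whose TSS was nearer.

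Of the 4 developmental factors, LHX2 and GATA4 had peaks and GATA6 and TCF21 had none, where 43.8% of all genes had none. LHX2 (ENSG00000106689, chr9:124001670-124033301), a LIM homeodomain factor whose loss in mice leads to stellate cell activation and liver fibrosis, had 1 peak, at chr9:124007086-124007529. Its signal value was 64.9, above 47.2% of the list, and its IDR score was 1000. The summit was 4460 bp upstream of the canonical TSS, in an intron of a longer LHX2 transcript and in an exon of the antisense RNA LHX2-AS1. An AP-1 element was 71 bp from the summit and no TEAD element was found, so at LHX2 the peak was of middle strength and outside the promoter. The number depended on the distance searched, and with 100 kb in place of 50 kb LHX2 had 6 peaks.

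GATA4 (ENSG00000136574, chr8:11676959-11760002), a zinc finger factor of the developing liver mesenchyme, had 3 peaks, all in introns downstream of the canonical TSS. The first, at chr8:11717588-11718031, was 13608 bp from that TSS, had a signal value of 59.6 and carried neither element. The other 2 overlapped each other, at chr8:11726702-11727145 and chr8:11726913-11727356, with signal values of 48.8 and 28.5 and IDR scores of 1000 and 965. Each of this pair held a TEAD and an AP-1 element of its own. The TEAD elements were 75 and 86 bp from the summits and the AP-1 elements 43 and 35 bp. GATA4 was thus the gene with the most elements, at peaks that were all below the median signal value of the list.

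GATA6 (ENSG00000141448, chr18:22169589-22202528), a relative of GATA4, had no peak in a searched window of 101345 bp, and the nearest peak was 111749 bp from a TSS, with a signal value of 42.9. TCF21 (ENSG00000118526, chr6:133889113-133895553), a basic helix-loop-helix factor of mesenchymal progenitors, had none in 100223 bp. Its nearest peak, with a signal value of 183, was 78716 bp from a TSS of TCF21. These were the shortest windows of the 10 genes. An absent peak says that none in the window entered the list made from both replicates, not that no binding occurred.

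Both interferon regulatory factors had peaks, where 56.2% of all protein-coding genes had one. IRF1 (ENSG00000125347, chr5:132440440-132508719, minus strand), the activator of interferon-induced genes, had 6 peaks, or 3.85 per 100 kb, more than 95.8% of genes. The peak nearest to a TSS, at chr5:132496158-132496333, had a signal value of 101.1, above 70.3% of the list, and lay 216 bp downstream of an alternative TSS and 5478 bp upstream of the canonical one. It carried the TEAD element shown above. The strongest, at chr5:132506098-132506320, had a signal value of 120.7 and was 15417 bp upstream of the canonical TSS. The remaining 4 had signal values of 119.6, 114.7, 59.4 and 44.7, and the last of these, at chr5:132439495-132439938, carried the AP-1 element 7 bp from its summit that is shown above. So 4 of the 6 IRF1 peaks had signal values between 101.1 and 120.7, and none was at the canonical promoter. All 6 summits also lay in an intron of the overlapping coding gene ENSG00000283782, and for 2 of them a TSS of that gene was nearer than one of IRF1.

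IRF2 (ENSG00000168310, chr4:184385702-184474558, minus strand), which competes with IRF1 for the same DNA element, had 1 peak, at chr4:184400371-184400814. The signal value was 66.6, above 48.8% of the list, and the IDR score was 1000. It lay in an intron 73957 bp downstream of the canonical TSS and carried both elements. In its window 32.0% of the 24-base words occurred more than once in hg38, up to 130 times. It and the VDR peak with an AP-1 element were the 2 of 22 peaks with more than 25% of such repeated words, against 6.31% of all peaks, and where reads of such sequence are placed depends on the mapping.

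The elements were about as common at the regulators as in the whole list. In 6 of the 22 peaks a TEAD element lay no more than 100 bp from the summit (27.3%, Wilson 95% interval 13.2 to 48.2%), against 23% of all peaks, and these 6 belonged to VDR, NR4A1, GATA4, IRF1 and IRF2. Within 50 bp of the summit the order was the opposite, with 13.6% of the 22 peaks against 20.1% of all peaks. An AP-1 element was found in 6 of 22 (27.3%, 13.2 to 48.2%), against 25.4%, at VDR, LHX2, GATA4, IRF1 and IRF2. Both were present in 3 peaks, 2 of GATA4 and that of IRF2, where all peaks gave 4.49%. Neither was present in 13 of the 22, against 56.1% of all peaks. The shorter core GGAATG was in 14 of 22 (63.6%, 43.0 to 80.3%), against 46.8%. The median signal value was 72.3 for the 6 peaks with a TEAD element and 74.8 for the 16 without. TEAD elements lay within 20 bp of the summit in 3 of these 6 peaks, and in 59.2% of all peaks with one. For the TEAD element, the AP-1 element and GGAATG, the share over all peaks lay inside the interval for the regulators. These intervals take the 22 peaks as independent, although they formed 20 regions and the 2 peaks of GATA4 with both elements overlapped. The comparison is therefore a description and not a test. A match of letters is a description and does not show that TEAD4 was bound at that base.

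The promoters annotated by RefSeq (250 bases before to 50 after the start, GRCh38.p14) were matched for 7 of the 10 genes (not VDR, GATA4 and IRF2). None of the matched promoters held a TEAD or AP-1 element or a summit. For NR4A1 and NR1H4, however, the matched starts did not include the canonical TSS. The strongest NR4A1 peak, 205 bp upstream of that TSS, and its TEAD element were therefore not covered by this search. Of all 35116 promoters in that table, 3.46% held the TEAD element and 4.95% the AP-1 element.

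The peaks could not always be assigned to the regulator alone. Of the 22 peaks, 7 were in reach of no other protein-coding gene by the same rule and 15 were also in reach of another, as the strongest peak of NR4A1 was of ATG101, TAMALIN and SMIM41. The same count over all peaks was not made, so whether this share is usual is not known. For 18 peaks the nearest coding TSS was that of the regulator. The others were the peak at TMEM106C given to VDR, the one in SMIM41 given to NR4A1 and 2 given to IRF1. Counting each peak only for the gene with the nearest coding TSS thus kept 18 of the 22. The mean over all genes then went from 1.44 to 0.789. No peak lay close to the limit of 50 kb on either side. The peaks given to a regulator lay at most 25836 bp from one of its TSSs, at NR4A1, and the nearest peaks left out were 58321 bp from VDR, 182 bp from a TSS of HDAC7, with a signal value of 290, and 59352 bp from PPARG, with a signal value of 48.8.

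The families and partners of the regulators were searched by the same rule. Of 30 paralogs, 14 (46.7%) had a peak, against the 56.2% of all genes, and none had 6 or more, whereas VDR and IRF1 did. The paralogs with the most peaks were IRF9, part of the interferon-stimulated complex ISGF3, with 4 and a highest signal value of 71.6, NR4A3, a close relative of NR4A1, with 2 and 415.0, and PPARD, with 2 and 323.5. Both peaks of NR4A3 were within 2.5 kb of a TSS, like the strongest peak of NR4A1, while their relative NR4A2 had no peak. Of 19 partners and cofactors, 12 (63.2%) had a peak. Among them were the coactivator NCOA3, with 6 peaks and a highest signal value of 436.4, and CEBPB, a bZIP factor, with 5 and 475.2.

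Of 12 features of quiescent stellate cells, 9 (75.0%) had a peak, against 56.2% of all protein-coding genes. They were led by RELN, the secreted protein reelin, with 6, CYGB, the stellate cell globin, with 3, and ADIPOR2, an adiponectin receptor, with 2. LRAT, which esterifies retinol for storage, had none. Of 14 further genes tied to quiescence or deactivation, 11 (78.6%) had a peak, against the same 56.2%. SMAD7, the inhibitor of TGF-β signalling, had 9, of which 4 were within 2.5 kb of a TSS, and the highest of them had a signal value of 377.7. ETS1 had 7 with a highest value of 337.5, and CAV1, the caveolae protein, had 6 with 238.5. These 3 genes were named because they had the most peaks of their list, so their high numbers follow from that choice. Over the whole list, 3 of the 14 genes had 6 or more peaks, against 4.67% of all genes. The list was chosen with earlier results of these data known. The median signal values of the 4 lists, 70.1, 70.4, 60.7 and 67.4 in the order given, were close to the 68.1 of all peaks, as was the 72.3 of the 10 regulators.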

How the data were processed

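TEAD4 ChIP-seq of LX-2 cells comprised 3 ChIP and 2 input samples. Per the submitters' notes and the methods, Chromap placed the reads on hg38, and the authors ran the IDR pipeline of ENCODE. The name of the deposited list gives an IDR threshold of 0.01, and the peak caller is not given in the sources used here. The deposited list has 10 columns. Its score (scaled IDR), signal value and −log10 q-value were computed by the authors on replicates 1 and 3 together, and their meaning was read from the layout and values. All 21113 peaks end inside the hg38 chromosomes. Depth per sample is unknown. Intervals (95%) cover counting error only.

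Genes, TSSs and exons came from GENCODE release 44, sequences from hg38. Motif letters were matched on either strand up to 100 bp from each summit, and 24-base words over chromosomes 1 to 22, X and Y. No tests were run. Alternatives changed the peaks, distances, TSSs, gene assignment, motif window and motif. The genes and lists were chosen with earlier results of these data known. All 10 genes are named, with 3 of each further list, those with most peaks (ties by highest signal value). A few items that this rule covers are not reported here. The count of repeated words was added after the values were seen. On simulated data, the peak counts of 500 of 500 genes and 1000 of 1000 planted motifs were recovered. Python 3.11.15, numpy 2.4.6, pandas 2.3.3, scipy 1.17.1, pysam 0.24.0 and matplotlib 3.10.9 were used.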

Additional observations from a re-analysis of the deposited data

How the results depend on the processing

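Of 37 alternatives for the counts, medians and shares over all 10 genes, 31 left the value within 1.5 times or within its interval. With only peaks above the median signal value, 4 of the 10 genes (PPARG, VDR, NR4A1 and IRF1) kept a peak, against 38.8% of all protein-coding genes, with 11 peaks in all, and the share with an AP-1 element fell to 9.09% from 27.3%, against 27.0% of all such peaks. With 100 kb in place of 50 kb the genes held 41 peaks, while the mean over all genes went from 1.44 to 2.35. LHX2 then had 6 peaks in place of 1, NR1H4 3 in place of 1, PPARG and NR4A1 4 in place of 2, IRF1 10 in place of 6 and TCF21 1 in place of 0, and GATA6 still had 0. With the canonical TSS alone, 1 gene in place of 4 had a promoter peak, against 11% of all genes. With GGAATG in place of the longer element, 63.6% of the peaks held it, against 46.8% of all peaks. Within 50 bp of the summit, the TEAD element was in 13.6% of the peaks, against 20.1% of all peaks. The cause of these shifts was not tested beyond what each alternative changes by construction. For single genes, 33 of 40 alternatives left the number of peaks within 1.5 times.

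No paired analysis was possible because values of single replicates are not in the list, and leaving out a replicate was not run for the same reason. Depth limits what an absent peak shows, and it is unknown here.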
